A study of Homo sapiens with 9 samples.

Results

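MDA-MB-231 cells with the *IGFBP6* knockdown were compared directly with those with the *ELOVL5* knockdown, over the 3 arrays of each, which are 6 of the 9 arrays of the study. The 3 arrays of the LUC control took no part in this comparison, and their values stand beside it as the background level. All transcript clusters that carry a single gene symbol were included, and they name 22465 genes. The comparison asks in which mRNAs the 2 knockdowns, each of a gene studied for its relation to metastasis in breast cancer, leave the same cells different from one another. MDA-MB-231 is an established human breast cancer cell line of the triple negative type. The IGFBP6 group carries a shRNA to *IGFBP6*, the ELOVL5 group carries a shRNA to *ELOVL5*, and the LUC group carries a shRNA to firefly luciferase. All 3 groups share the lentiviral pLVX vector and the selection with puromycin. Each knockdown is 1 stable culture with 1 shRNA, chosen as the culture with the strongest fall of its target, and its 3 RNA samples were obtained independently. What belongs to a target gene and what belongs to the culture or the shRNA therefore cannot be told apart, and p-values here cover only how RNA samples of 1 culture vary.

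The ELOVL5 enzyme lengthens polyunsaturated fatty acids at the endoplasmic reticulum. IGFBP6 is secreted and holds insulin-like growth factors, above all IGF-II, away from their receptors. Many of the genes described here act at the cell surface or outside the cell, where metalloproteinases cut the extracellular matrix, integrins and cadherins hold cells to the matrix and to each other, and chemokines and growth factors carry signals between cells. Others belong to programmes with a known common regulator, such as the interferon-stimulated genes with their STAT and IRF factors and the cholesterol synthesis genes with the SREBP2 factor.

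Between arrays of the IGFBP6 knockdown the correlation was 0.9901 to 0.9942, between those of the ELOVL5 knockdown it was 0.9954 to 0.9976, and across the knockdowns it was 0.9797 to 0.982, taken over transcript clusters, which are no independent replicates. The median SD of a gene over 3 arrays was 0.139 on the log2 scale in the IGFBP6 knockdown and 0.0737 in the ELOVL5 knockdown. Array medians lay between 4.95 and 5.10 in the IGFBP6 knockdown and between 4.98 and 5.03 in the ELOVL5 knockdown. Of the 12 marker genes of basal mesenchymal cells that were measured, 10 had a mean log2 of at least 6 in both knockdowns. Of the 17 luminal and epithelial markers, 10 reached this level in the IGFBP6 knockdown and 9 in the ELOVL5 knockdown, and 2 were higher and 3 were lower in the IGFBP6 knockdown. The keratin gene *KRT18* was the brightest of them at 12.88 in the IGFBP6 knockdown and 13.12 in the ELOVL5 knockdown, whereas the hormone receptor genes *ESR1* and *PGR* lay at 4.70 and 4.13 in the IGFBP6 knockdown, and at 4.61 and 4.05 in the ELOVL5 knockdown, below the median of all values of 5.01. None of the 9 fibroblast markers reached a mean log2 of 6 in either knockdown, and 2 of the 11 leukocyte markers did in both. The whole fibroblast list summed to a log2 of 7.64 to 7.84 per array in the IGFBP6 knockdown and of 7.77 to 7.80 in the ELOVL5 knockdown.

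The shRNA targets were examined first. *ELOVL5* mRNA had a log2 intensity of 11.44, 11.70 and 11.90 in the IGFBP6 knockdown, against 9.66, 9.67 and 9.57 in the ELOVL5 knockdown, with 11.25, 11.26 and 11.36 in the LUC control. The ELOVL5 knockdown arrays lie below all others, and *ELOVL5* differed by 2.05 (log2, standard error 0.13, adjusted p = 4.95e-05 from limma). *IGFBP6* mRNA had a log2 intensity of 5.65, 5.30 and 5.56 in the IGFBP6 knockdown, against 5.99, 6.02 and 6.02 in the ELOVL5 knockdown, with 6.13, 6.21 and 6.03 in the LUC control. The IGFBP6 knockdown arrays lie below all others here too, but the difference of -0.51 (standard error 0.11, adjusted p = 0.0187 from limma) is smaller than 1.5 times and was not called. Its level lies close to the median of all values, 5.01.

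Calls required both a limma adjusted p (Benjamini-Hochberg) below 0.05 and a difference of 1.5 times or more. Of the 22465 genes, 2940 were called (13.1%), 1446 of them higher (6.44%) and 1494 lower (6.65%) in the IGFBP6 knockdown than in the ELOVL5 knockdown. The arrays of the knockdowns did not overlap for 8952 genes (39.8%). The 95% interval of the difference lay wholly within 1.5 times for 15623 genes (69.5%), but most of these are dim, and of the 10841 genes whose mean log2 reached 6 this held for 5367 (49.5%). In these brighter genes 24.1% were called, 11.8% higher and 12.4% lower. The shares called of all genes and of the brighter genes are the background to every list count below. At least 4 times separated the knockdowns in 68 genes that were higher and 104 that were lower, and at least 10 times in 13 and 22 genes. Among the 2940 called genes, the mean of the IGFBP6 knockdown lay at least 1.5 times away from that of the LUC control in 2562 genes (87.1%). The mean of the ELOVL5 knockdown did so in 309 genes (10.5%). Over all genes the shares were 16.7% and 2.37%. As called genes were picked for a gap between the knockdowns, a distance of at least 1 of them from the control is partly built in.

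**Figure D1:**
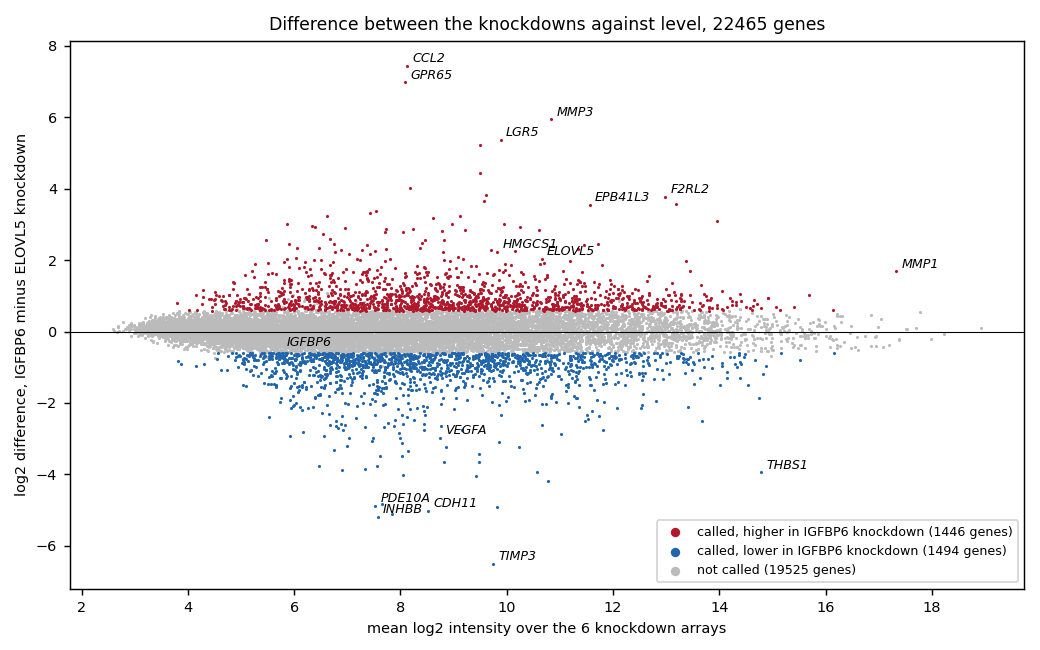
Log2 difference of each gene, IGFBP6 minus ELOVL5 knockdown (vertical axis), against its mean log2 intensity over the 6 knockdown arrays (horizontal axis), with 1 point per gene and the 1446 genes called higher and 1494 called lower in colour. The 2 largest differences upward are those of *CCL2* at 7.45 and *GPR65* at 6.98, and the largest downward is that of *TIMP3* at -6.50.

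The 15 largest differences in each direction included genes of secreted proteins, receptors and noncoding RNAs. The chemokine gene *CCL2*, whose product attracts monocytes, had a log2 intensity of 12.43, 11.78 and 11.33 in the IGFBP6 knockdown, against 4.49, 4.57 and 4.13 in the ELOVL5 knockdown and 4.21, 4.14 and 3.91 in the LUC control. It lies below the median of all values in both other groups, and the difference was 7.45 (standard error 0.26, adjusted p = 4.9e-06 from limma), the largest of all genes. The proton-sensing receptor gene *GPR65* had 10.85, 11.82 and 12.05 in the IGFBP6 knockdown, against 4.58, 4.63 and 4.56 in the ELOVL5 knockdown and 4.54, 4.83 and 4.59 in the LUC control. It shows the same pattern as *CCL2*, with a difference of 6.98 (standard error 0.27, adjusted p = 7.68e-06 from limma). *LGR5*, the receptor for R-spondins that marks stem cells of the intestine, had 12.87, 12.52 and 12.33 in the IGFBP6 knockdown, against 7.02, 7.34 and 7.24 in the ELOVL5 knockdown and 6.96, 7.73 and 5.86 in the LUC control, a difference of 5.37. Where a group lies that low, as for *CCL2* and *GPR65*, the differences hold on the processed scale and cannot be read as copies of mRNA.

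Other genes of this group code for receptors of soluble ligands. *IL13RA2*, the decoy receptor of interleukin 13, had 10.44, 10.21 and 9.90 in the IGFBP6 knockdown, against 6.16, 6.18 and 6.17 in the ELOVL5 knockdown and 4.0, 4.08 and 3.96 in the LUC control. The 3 groups form 3 separate levels, and the difference between the knockdowns was 4.01. *F2RL2*, which encodes the protease-activated receptor 3, had 14.75, 14.96 and 14.91 in the IGFBP6 knockdown, against 10.98, 11.16 and 11.13 in the ELOVL5 knockdown and 11.15, 11.02 and 11.61 in the LUC control, a difference of 3.78. *S1PR3*, a receptor of sphingosine 1-phosphate, differed by 3.39, and the noncoding RNA genes *PTCSC3* and *LINC02582* differed by 5.24 and 4.44. The membrane skeleton gene *EPB41L3* had 13.32, 13.25 and 13.44 in the IGFBP6 knockdown, against 9.51, 9.98 and 9.86 in the ELOVL5 knockdown and 5.01, 4.97 and 4.98 in the LUC control, a difference of 3.55. In 8 of the 15 genes, among them *IL13RA2* and *EPB41L3*, the ELOVL5 knockdown also lay at least 1.5 times away from the LUC control. This held for 12.7% of all genes called higher and 2.37% of all genes.

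Among the genes that were lower, *TIMP3*, an inhibitor of metalloproteinases that stays bound to the extracellular matrix, had 6.74, 6.58 and 6.16 in the IGFBP6 knockdown, against 12.79, 13.06 and 13.13 in the ELOVL5 knockdown and 13.16, 13.44 and 12.38 in the LUC control. The ELOVL5 knockdown overlaps the LUC control, and the difference between the knockdowns was -6.50 (standard error 0.16, adjusted p = 1.96e-06 from limma). The mesenchymal cadherin gene *CDH11* had 6.19, 5.93 and 5.90 in the IGFBP6 knockdown, against 10.84, 11.16 and 11.06 in the ELOVL5 knockdown and 12.82, 13.29 and 12.32 in the LUC control. It forms 3 separate levels with the ELOVL5 knockdown between the other groups, and the difference was -5.01. The same order was seen for *INHBB*, the beta B chain of activins (difference -5.19), *SLAMF7*, a receptor of lymphoid cells (-4.82), and *TGFB2*, a ligand of the TGF-beta receptor (-3.94). *PDE10A*, a phosphodiesterase of cyclic nucleotides, had 5.16, 5.01 and 5.07 in the IGFBP6 knockdown, against 10.10, 9.84 and 9.94 in the ELOVL5 knockdown and 9.60, 9.99 and 10.14 in the LUC control, a difference of -4.88. Lower as well were *EFEMP1*, which encodes fibulin 3 (-4.90), *HAS2*, a synthase of hyaluronan (-4.19), *CEMIP*, which takes part in the breakdown of hyaluronan (-3.87), and *TGM2*, a transglutaminase that crosslinks proteins (-4.04).

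**Figure D2:**
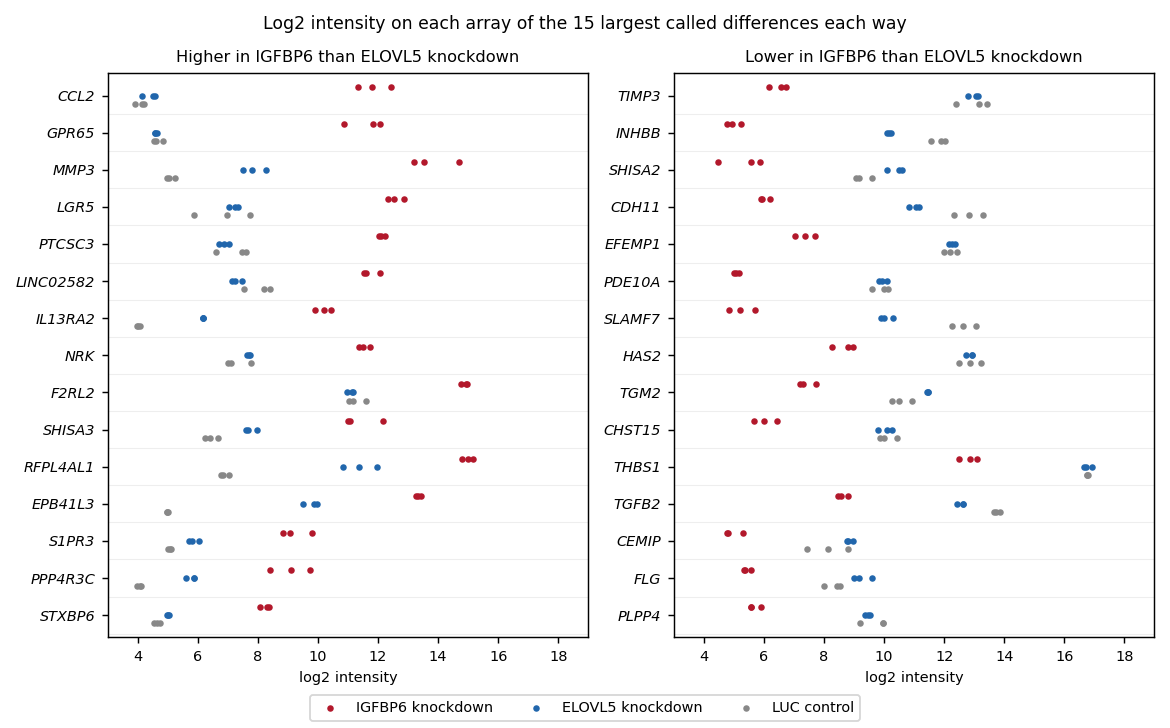
Log2 intensity (horizontal axis) of the 15 genes with the largest called differences upward (left) and downward (right), with 1 point per array and a colour per group. Only genes whose 3 IGFBP6 knockdown arrays do not overlap the 3 ELOVL5 knockdown arrays were drawn, so a gap in every gene is built in. For *TIMP3* the arrays lie at 6.16 to 6.74 against 12.79 to 13.13.

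The proteases of the extracellular matrix and their inhibitors moved unevenly. Of 22 metalloproteinase genes measured, 3 were higher and 2 were lower, with a median difference of 0.06 beside 0.02 over all genes. The share called was 22.7%, beside 13.1% of all genes and 24.1% of the brighter ones. The collagenase gene *MMP1* had 18.37, 18.13 and 18.03 in the IGFBP6 knockdown, against 16.50, 16.53 and 16.45 in the ELOVL5 knockdown and 9.92, 9.59 and 10.01 in the LUC control. Both knockdowns lie far above the control, and between them the difference was 1.68 (standard error 0.11, adjusted p = 6.06e-05 from limma), on a part of the processed scale beyond 16, where 0.307% of the values of the 6 arrays lie. The stromelysin gene *MMP3* had 14.68, 13.19 and 13.54 in the IGFBP6 knockdown, against 8.28, 7.51 and 7.79 in the ELOVL5 knockdown and 5.02, 4.96 and 5.25 in the LUC control, a difference of 5.94. *MMP10*, another stromelysin, was higher by 0.87. *MMP1*, *MMP3* and *MMP10* lie close together on chromosome 11, between *CEP126* and *IL18*, in a run described below where 19 of 40 genes were higher. For the metalloproteinase list, the median of the difference over each gene's 40 nearest expressed protein-coding genes was 0.32, beside 0.025 over all genes. The part of these surroundings in the result was not tested. The membrane-bound *MMP14* had 10.61, 11.19 and 10.75 in the IGFBP6 knockdown, against 12.37, 12.42 and 12.22 in the ELOVL5 knockdown and 11.22, 11.84 and 11.68 in the LUC control. It was lower by 1.49 on the log2 scale, with the ELOVL5 knockdown above the control and the IGFBP6 knockdown below it. Of 4 inhibitors of metalloproteinases measured, 3 were lower, of which *TIMP4* and *RECK* lost their call in some alternatives, and *TIMP1* did not pass the test (0.26, adjusted p = 0.229 from limma).

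Of 15 genes of plasminogen activation and coagulation, 5 were higher and 5 were lower (median 0.15). The urokinase gene *PLAU* and its receptor gene *PLAUR* were higher by 1.11 and 0.64, and *SERPINE2*, an inhibitor of thrombin and urokinase, by 1.34. Tissue factor, *F3*, which starts the coagulation cascade, had 12.59, 12.33 and 12.14 in the IGFBP6 knockdown, against 14.70, 14.24 and 14.44 in the ELOVL5 knockdown and 15.04, 14.89 and 15.10 in the LUC control, a difference of -2.11. *PLAT*, the tissue-type plasminogen activator, was lower by 1.09 on the log2 scale. Without ELOVL5 knockdown replicate 3, 2 genes of this list in place of 5 were higher. *PLAU* lost its call there, and also without IGFBP6 knockdown replicate 2 and without moderation of the variance.

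Matrix proteins and adhesion receptors were described by list. The shares called were 30% for integrins, 31.4% for matricellular and other matrix glycoproteins and 6.45% for collagens. They were 35.7% for laminins and basement membrane and 31.6% for contractile genes. Beside these stand 13.1% of all genes and 24.1% of the brighter ones. None of the 20 integrin genes measured was higher and 6 were lower (median -0.24), among them *ITGB3* (-1.61), *ITGA3* (-1.47) and *ITGB4* (-1.24). *ITGA2*, a chain of a collagen receptor, had 13.03, 13.09 and 12.72 in the IGFBP6 knockdown, against 13.66, 14.04 and 13.90 in the ELOVL5 knockdown and 12.73, 13.22 and 12.35 in the LUC control, so that the ELOVL5 knockdown stands apart from both other groups. Of 35 genes of matricellular and other matrix glycoproteins, 4 were higher and 7 were lower (median 0.01). Thrombospondin 1, *THBS1*, had 13.08, 12.86 and 12.49 in the IGFBP6 knockdown, against 16.91, 16.64 and 16.71 in the ELOVL5 knockdown and 16.75, 16.78 and 16.76 in the LUC control, a difference of -3.94. Fibronectin, *FN1*, was lower by 1.76, whereas *LOX*, which crosslinks collagen, was higher by 1.43, with 12.74, 12.57 and 12.65 in the IGFBP6 knockdown, against 11.27, 11.20 and 11.19 in the ELOVL5 knockdown. Of 31 collagen genes, 1 was higher and 1 was lower, and of 14 genes of laminins and basement membrane, 3 were higher and 2 were lower (median 0.09). Of 19 contractile genes and targets of the SRF factor, 6 were lower and none was higher (median -0.21), led by the myosin light chain gene *MYL9* at -2.77 and the tropomyosin gene *TPM4* at -1.31.

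In the contacts between cells, 1 of 17 classical cadherins was higher and 1, *CDH11*, was lower. The desmosomal gene *DSP* had 9.58, 9.83 and 9.85 in the IGFBP6 knockdown, against 11.21, 11.37 and 11.46 in the ELOVL5 knockdown and 11.81, 12.35 and 12.16 in the LUC control, a difference of -1.59. The tight junction genes *OCLN* and *CLDN1* were higher in the IGFBP6 knockdown than in the ELOVL5 knockdown, by 1.29 and 0.67. *CLDN1* had 8.43, 8.87 and 9.07 in the IGFBP6 knockdown, against 8.06, 8.08 and 8.22 in the ELOVL5 knockdown and 9.23, 9.80 and 10.52 in the LUC control, so that both knockdowns lie below the control. Its call was lost in 9 of the alternatives, 5 of them with a single array left out, with an adjusted p from limma of up to 0.154. Of 26 clustered protocadherin genes, which lie side by side on chromosome 5 and give neurons their identity, 8 were higher and none was lower (median 0.35). *PCDHB5* had 7.02, 7.89 and 8.0 in the IGFBP6 knockdown, against 5.10, 5.57 and 5.25 in the ELOVL5 knockdown and 4.77, 4.69 and 4.47 in the LUC control. Neighbouring protocadherins are close copies of one another, so probes may share signal between them.

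Ligands and receptors that carry signals between cells moved in both directions. Of 23 genes of TGF-beta and activin ligands and their inhibitors, 6 were lower and 1 was higher (median -0.11). The share called was 30.4%, beside 13.1% of all genes and 24.1% of the brighter ones. *BMP4* and its inhibitor *NOG* were both lower, by 3.23 and 3.09 on the log2 scale, and so was *LTBP1*, which holds latent TGF-beta in the matrix, by 1.76. Of 19 interleukins and colony stimulating factors, 4 were higher and 5 were lower. *IL24* had 9.98, 10.86 and 9.75 in the IGFBP6 knockdown, against 7.69, 7.14 and 7.27 in the ELOVL5 knockdown and 6.61, 7.39 and 7.67 in the LUC control, a difference of 2.83. *CSF1*, the growth factor of macrophages, had 6.44, 6.53 and 6.42 in the IGFBP6 knockdown, against 9.41, 9.67 and 9.67 in the ELOVL5 knockdown and 10.60, 10.72 and 9.97 in the LUC control, a difference of -3.12. *IL1B* and *IL18* were higher by 2.01 and 1.99, and *IL6* was lower by 1.41. Semaphorins, plexins and neuropilins, the ligands and receptors of cell guidance, counted 9 lower and 3 higher of 31 (median -0.20), with *PLXNA1* at -2.63 and *SEMA3E* at 1.56.

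Of 18 genes of the IGF axis, 5 were lower and none was higher (median -0.12). The 27.8% called is near the 24.1% of the brighter genes, with 13.1% over all genes. *IGFBP4* had 10.21, 10.55 and 10.28 in the IGFBP6 knockdown, against 12.63, 12.67 and 12.72 in the ELOVL5 knockdown and 12.94, 13.03 and 12.35 in the LUC control, a difference of -2.33. *PAPPA*, the protease that cuts IGFBP4, had 5.26, 4.94 and 5.05 in the IGFBP6 knockdown, against 6.82, 6.98 and 6.86 in the ELOVL5 knockdown and 5.78, 5.97 and 5.64 in the LUC control, a difference of -1.80. Its ELOVL5 knockdown arrays lie above the control and its IGFBP6 knockdown arrays below it. *IGF1R*, the receptor of IGF-I, did not pass the test (-0.14, standard error 0.15, adjusted p = 0.632 from limma).

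Among the genes of antigen presentation and of the interferon response, most of the calls were lower in the IGFBP6 knockdown than in the ELOVL5 knockdown, and many members were not called. Of 15 genes of HLA class I and peptide loading, 10 were lower and none was higher, with a median difference of -0.84 beside 0.02 over all genes, and all 15 differences lay below 0. *HLA-B*, which presents peptides to cytotoxic T cells, had 7.70, 7.92 and 7.66 in the IGFBP6 knockdown, against 9.86, 9.88 and 9.61 in the ELOVL5 knockdown and 9.56, 10.28 and 9.69 in the LUC control. The ELOVL5 knockdown overlaps the control, and the difference was -2.02 (standard error 0.12, adjusted p = 3.7e-05 from limma). *HLA-C* differed by -1.94, the peptide loading gene *TAPBP* by -1.31 and the light chain gene *B2M* by -0.87. HLA genes are close copies of one another, and probes may share signal between them.

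Of 13 HLA class II genes, 5 were lower and none was higher (median -0.41). *HLA-DRA* had 4.69, 4.54 and 4.51 in the IGFBP6 knockdown, against 8.20, 8.84 and 8.02 in the ELOVL5 knockdown and 6.49, 7.80 and 6.01 in the LUC control, a difference of -3.77. The control lies between the knockdowns, as it does for the invariant chain gene *CD74* (-2.75) and for *HLA-DRB1* (-2.43). *CIITA*, the activator of class II genes, differed by -0.71, with 4.97, 4.74 and 4.89 in the IGFBP6 knockdown and 5.51, 5.65 and 5.57 in the ELOVL5 knockdown. *LAPTM5*, a lysosomal membrane protein of leukocytes, had 6.35, 7.59 and 7.02 in the IGFBP6 knockdown, against 10.49, 10.74 and 10.71 in the ELOVL5 knockdown. Of the 11 leukocyte markers it alone was called, and their part in the HLA class II result was not tested.

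Of 37 interferon-stimulated genes, 19 were lower, 3 were higher and 15 were not called (median -0.75). The counts were 13 lower and 1 higher without ELOVL5 knockdown replicate 3, 13 lower and 2 higher without ELOVL5 knockdown replicate 2, and 7 lower and 1 higher without moderation of the variance. *SAMD9L*, which restrains the growth of virus and cell, had 5.81, 5.97 and 5.83 in the IGFBP6 knockdown, against 8.86, 9.62 and 9.62 in the ELOVL5 knockdown and 9.29, 9.88 and 8.85 in the LUC control, a difference of -3.50 (standard error 0.20, adjusted p = 3.53e-05 from limma). *RIGI*, a sensor of viral RNA, differed by -1.90. *OASL*, an antiviral protein, had 6.78, 7.35 and 7.15 in the IGFBP6 knockdown, against 8.27, 10.35 and 9.13 in the ELOVL5 knockdown and 7.16, 7.70 and 6.95 in the LUC control, so that here the ELOVL5 knockdown stands apart from the control. Its ELOVL5 knockdown arrays spread widely, and its call was lost without moderation of the variance and without IGFBP6 knockdown replicate 1. *IFI44L* ran the other way, with 8.58, 8.66 and 8.14 in the IGFBP6 knockdown, against 6.87, 7.30 and 7.18 in the ELOVL5 knockdown and 5.50, 5.94 and 5.18 in the LUC control. Of the 7 guanylate binding proteins, GTPases induced by interferon gamma, 4 were lower and none was higher, a family that was chosen after its values were seen. *GBP1* had 7.47, 7.85 and 7.96 in the IGFBP6 knockdown, against 10.77, 11.37 and 11.41 in the ELOVL5 knockdown, and *GBP2* and *GBP3* differed by -3.21 and -2.88. The guanylate binding proteins lie side by side on chromosome 1, and the 40 nearest expressed protein-coding genes around *GBP1* had a median difference of -0.47. For the interferon list, the median of the same neighbour value was -0.04.

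The promoters of the interferon-stimulated genes were searched on both strands for GAAA, any 2 bases and again GAAA, a short form of the interferon-stimulated response element that STAT and IRF factors bind, in the 250 bases before to 50 bases after the annotated start in RefSeq (GRCh38.p14). The search overlaps no other motif used here and was chosen after the values were seen. Of the 19 genes that were lower, 16 had a promoter in the table and 10 of these held the motif, which is 62.5%, beside 3.14% of the 15247 tested genes with a promoter. The whole interferon list held it in 20 of 29 promoters (69%), so the motif was not more frequent among the lower genes than over the list. As interferon-stimulated genes are known to share STAT and IRF factors, a share above that of all genes is built in. It says nothing about the difference between the knockdowns. The motif was in 7 of 13 promoters of HLA class I and peptide loading genes (53.8%). To show what the shared letters look like, the last 150 bases before the start are given for *SAMD9* (chr7:93117980-93118129 on the minus strand), *BST2* (chr19:17405631-17405780 on the minus strand), *DDX60* (chr4:168318753-168318902 on the minus strand), *IFI44* (chr1:78649639-78649788 on the plus strand) and *PARP14* (chr3:122680689-122680838 on the plus strand), with the motif in capitals.
SAMD9: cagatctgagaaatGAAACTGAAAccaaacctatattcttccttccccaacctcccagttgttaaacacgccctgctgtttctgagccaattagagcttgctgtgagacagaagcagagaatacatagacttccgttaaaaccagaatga
BST2: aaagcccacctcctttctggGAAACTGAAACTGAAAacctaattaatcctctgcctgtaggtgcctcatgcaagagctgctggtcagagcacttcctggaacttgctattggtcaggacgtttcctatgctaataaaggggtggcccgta
DDX60: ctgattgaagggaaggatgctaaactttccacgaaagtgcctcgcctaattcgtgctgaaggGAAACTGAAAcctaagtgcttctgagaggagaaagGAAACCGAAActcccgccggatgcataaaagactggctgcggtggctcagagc
IFI44: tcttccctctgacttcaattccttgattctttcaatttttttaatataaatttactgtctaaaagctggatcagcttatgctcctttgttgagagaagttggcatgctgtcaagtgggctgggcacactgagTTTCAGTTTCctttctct
PARP14: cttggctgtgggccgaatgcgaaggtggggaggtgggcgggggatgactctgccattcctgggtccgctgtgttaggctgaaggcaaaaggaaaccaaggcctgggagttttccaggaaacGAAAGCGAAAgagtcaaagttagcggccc

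The motif begins 136 bases before the start in *SAMD9*, in 2 overlapping copies from 130 bases before it in *BST2*, in 2 copies from 88 bases before it in *DDX60*, and 18 and 29 bases before it in *IFI44* and *PARP14*. In *IFI44* it stands on the opposite strand. *SAMD9* differed by -1.96, *BST2*, which tethers virus particles to the cell, by -1.65, *DDX60*, a helicase, by -1.20, *IFI44* by -1.01 and *PARP14*, an ADP-ribosyltransferase, by -0.98. A match describes these letters only and was not tested as a binding site.

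The promoters of the 30 genes with the largest differences were searched in the same way for TGANTCA, the AP-1 element, and for TATAAA, the TATA box. Of the 10 promoters found for the 15 genes that were higher, 2 held the AP-1 element and 2 the TATA box, and of the 10 found for the 15 that were lower, 1 held the AP-1 element and 3 the TATA box. The shares over all tested genes with a promoter were 6.13% and 9.44%. The AP-1 element was present in a gene of each direction, in *F2RL2* (chr5:76623404-76623553 on the minus strand), 37 bases before the start, and in *FLG* (chr1:152325240-152325389 on the minus strand), which encodes filaggrin of the skin barrier and differed by -3.85, 79 bases before the start.
F2RL2: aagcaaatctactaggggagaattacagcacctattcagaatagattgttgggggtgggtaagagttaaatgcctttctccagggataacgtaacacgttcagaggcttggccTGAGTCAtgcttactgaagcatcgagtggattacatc
FLG: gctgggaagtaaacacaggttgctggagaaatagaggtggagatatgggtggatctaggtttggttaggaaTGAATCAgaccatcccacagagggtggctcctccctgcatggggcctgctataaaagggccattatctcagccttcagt

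Of 20 measured genes of cholesterol synthesis, 12 were higher in the IGFBP6 knockdown, which is 60%, none was lower and 8 were not called. The median difference was 0.83, and 5 of the 20 differences lay below 0. *HMGCS1*, an early enzyme of the pathway, had 10.60, 10.86 and 11.35 in the IGFBP6 knockdown, against 8.71, 8.67 and 8.75 in the ELOVL5 knockdown and 9.09, 8.92 and 8.37 in the LUC control. The ELOVL5 knockdown overlaps the control, and the difference was 2.23 (standard error 0.18, adjusted p = 0.000157 from limma). *SQLE*, the squalene epoxidase, had 10.25, 10.55 and 10.81 in the IGFBP6 knockdown, against 9.06, 8.80 and 8.96 in the ELOVL5 knockdown. The later enzymes *SC5D* and *MSMO1* were higher by 1.67 and 1.66. With any 1 of the 6 arrays left out, 12 or 13 were higher and at most 1 was lower. The promoters of this list were searched in the same way for TCACNCCAC, the sterol regulatory element. It was in 1 of the 18 promoters found, that of *SREBF2*, beside 1.15% of all tested genes with a promoter. Of the 10 promoters found for the members that were higher, 0 held it. In the 24 genes of fatty acid synthesis, elongation and desaturation, 5 were higher and 5 were lower (median 0.06). *SCD*, the desaturase that makes oleic acid, was higher by 0.83, and the elongase gene *ELOVL7* had 5.96, 5.91 and 6.10 in the IGFBP6 knockdown, against 7.05, 7.27 and 7.19 in the ELOVL5 knockdown and 8.04, 8.11 and 8.0 in the LUC control. Fatty acid oxidation and peroxisome genes (2 higher, 3 lower of 35) and genes of eicosanoid synthesis (none higher, 1 lower of 29) were called at 14.3% and 3.45%. In the fatty acid oxidation and peroxisome list none was higher under median centring, without moderation, or with any 1 array left out other than IGFBP6 knockdown replicate 1.

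**Figure D3:**
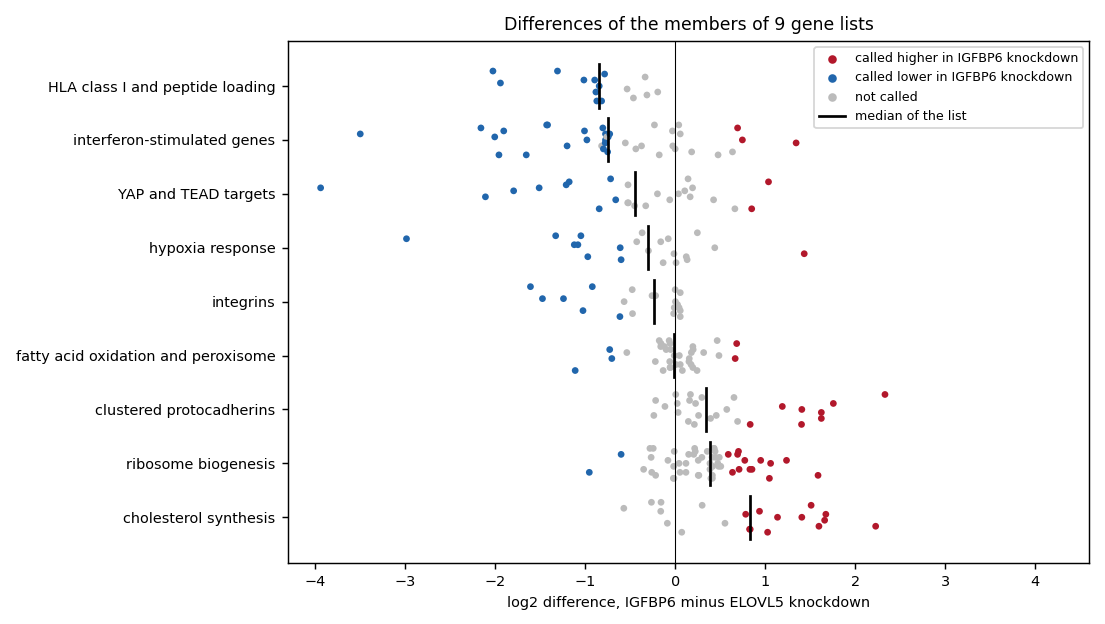
Log2 difference, IGFBP6 minus ELOVL5 knockdown (horizontal axis), of the measured members of 9 gene lists, with 1 point per gene coloured by its call and a bar at the list's median. The median is -0.84 for HLA class I and peptide loading, -0.75 for interferon-stimulated genes, -0.01 for fatty acid oxidation and peroxisome genes and 0.83 for cholesterol synthesis.

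The response to hypoxia counted 8 lower genes and 1 higher gene of 21 (median -0.30), and 5 lower without moderation of the variance. *VEGFA*, the growth factor of blood vessels, had 7.50, 7.16 and 7.10 in the IGFBP6 knockdown, against 10.05, 10.38 and 10.28 in the ELOVL5 knockdown and 9.81, 10.39 and 9.75 in the LUC control, a difference of -2.98. The other members that were lower by more than 1 on the log2 scale were *DDIT4*, *NDRG1*, *BNIP3L* and *P4HA2*, and the higher one was *LOX*. Glycolysis genes counted 2 lower and 1 higher of 21. Of 25 targets of YAP and TEAD, the effectors of the Hippo pathway, 9 were lower and 2 were higher (median -0.45), *TGFB2* and *F3* among the lower, *CCN1* at -1.18, and *NT5E*, which makes adenosine at the cell surface, at 1.04. Of 35 lysosomal proteins, 8 were lower and 3 were higher, led by the protease cathepsin D, *CTSD*, with 12.41, 12.56 and 12.27 in the IGFBP6 knockdown, against 14.89, 15.02 and 14.88 in the ELOVL5 knockdown and 15.11, 15.22 and 14.59 in the LUC control.

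Genes of ribosome biogenesis leaned upward in direction. Of 54 ribosome biogenesis genes, 13 were higher and 2 were lower, with a median of 0.39, and 41 differences lay above 0. *POLR1B*, a subunit of RNA polymerase I, had 10.69, 10.98 and 10.81 in the IGFBP6 knockdown, against 9.21, 9.29 and 9.22 in the ELOVL5 knockdown and 9.10, 8.80 and 9.22 in the LUC control, a difference of 1.59. *MYC*, a transcription factor known to drive these genes, was one of the lower members (-0.95). The 27.8% called is close to the 24.1% of all genes as bright as this. Mitochondrial ribosomal proteins counted 13 higher and 2 lower of 73 (median 0.20) and cytosolic ribosomal proteins 3 higher and none lower of 47. Their shares called, 20.5% and 6.38%, lie below that 24.1%. Among the 21 targets of the antioxidant factor NRF2, 7 were higher and 2 were lower, and the aldo-keto reductase gene *AKR1C3* led with a difference of 1.58. *AKR1C3*, *AKR1C1* and *AKR1C2* are near copies, so their probes may share signal.

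Proliferation genes showed no common direction. Genes of DNA replication counted 6 higher and 5 lower of 42, a share of 26.2% near that of all genes of this brightness. Mitosis genes counted 7 higher and 2 lower of 39, and without IGFBP6 knockdown replicate 2 the number that were higher was 1. Respiratory chain genes (4 higher, 5 lower of 67) and proteasome genes (1 higher, 2 lower of 28) were called at 13.4% and 10.7%, below the 24.1% of bright genes. None of the 25 HOX genes was called (limma), and 2 of them had an unadjusted p under 0.05. Small nucleolar RNAs, which guide the modification of ribosomal RNA, were called at 18%, beside 13.1% of all genes, with 29 higher and 14 lower of 239. Of those named SNORD, 23 were higher and 4 were lower of 173. Those named SNORA counted 6 higher and 10 lower of 64. Of 1840 long noncoding RNA genes, 81 were higher and 27 were lower (5.87%).

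**Figure D4:**
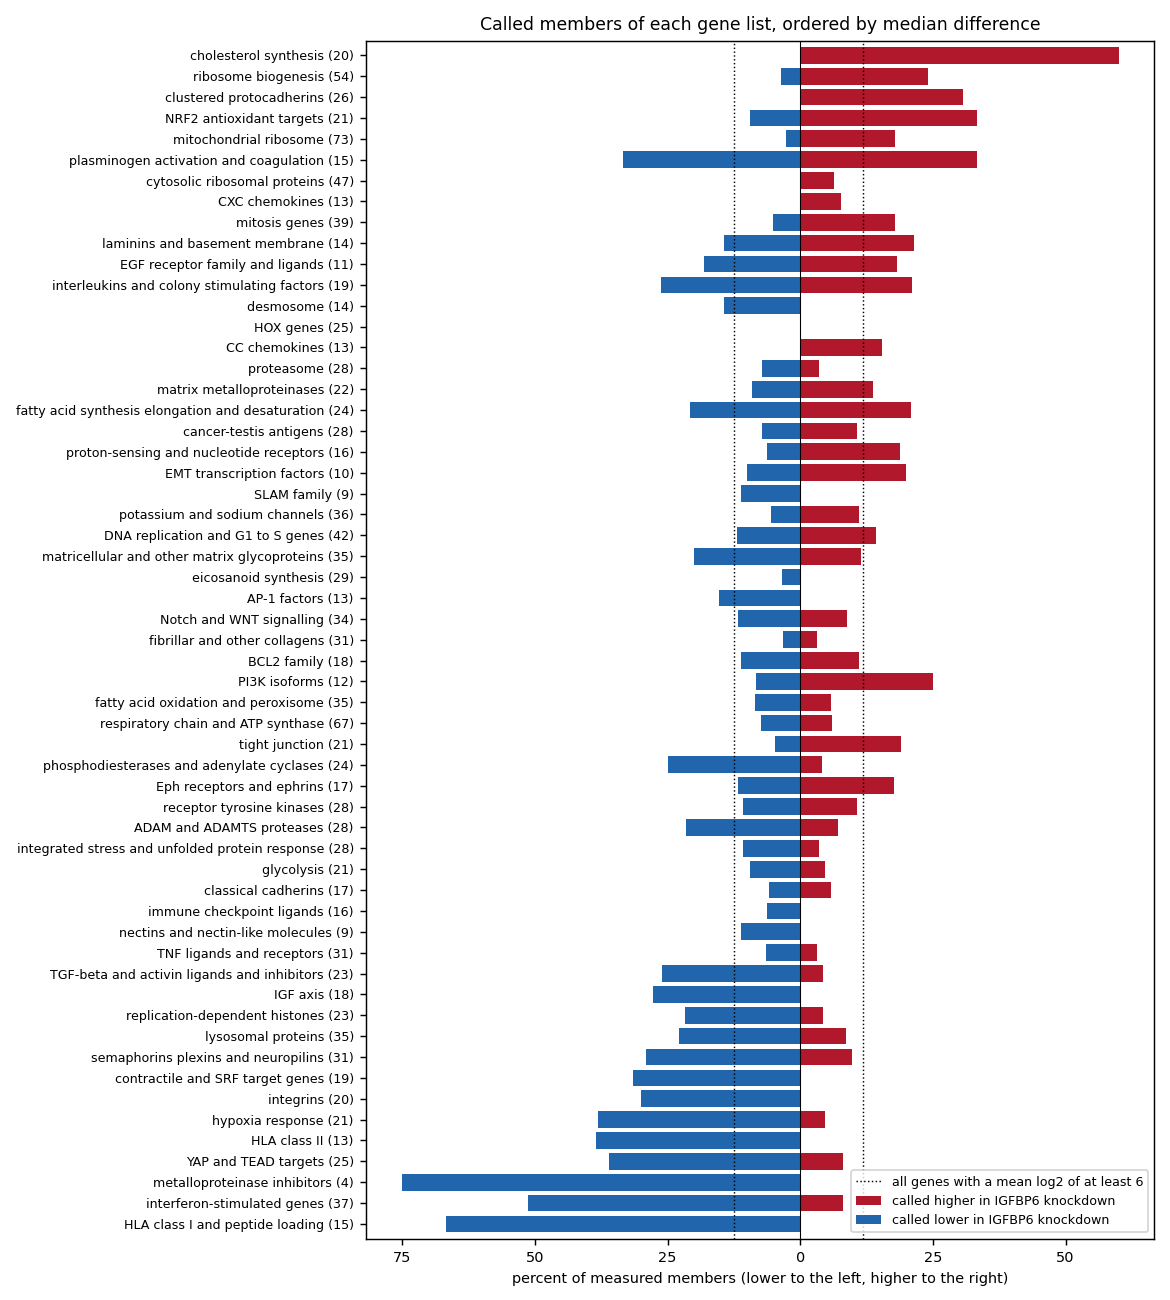
Percent of the measured members of each of 57 gene lists (number in brackets) that were called higher (right) or lower (left) in the IGFBP6 knockdown, ordered by the list's median difference. The dotted lines mark the 11.8% higher and 12.4% lower of all genes whose mean log2 reached 6, and cholesterol synthesis at 60% higher and HLA class I and peptide loading at 66.7% lower lie far outside them.

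Neighbouring genes differed together in parts of several chromosomes. Over runs of 40 expressed protein-coding genes in genome order, 5% of medians lay below -0.463 and 5% above 0.38. The lowest run median was that from *DCAF15* to *MAP1S* on chromosome 19, at -0.91, with 25 of 40 genes lower, none higher and 39 differences below 0, and the run from *DNM2* to *TRIR* beside it had -0.87 and also 25 lower. On chromosome 12 the run from *KCTD10* to *SPRING1* had a median of -0.81 with 28 lower and none higher, while runs elsewhere on that chromosome lay highest of all, from *PLBD1* to *SINHCAF* at 0.79 (23 higher, 1 lower) and from *KMT5A* to *ZNF268* at 0.67 (23 higher, none lower). On chromosome 11 the run from *CEP126* to *IL18* had 0.59 with 19 higher. All 6 runs lay nearer to the LUC control in the ELOVL5 knockdown. For *DCAF15* to *MAP1S* the median distance from the control mean was -0.90, -0.57 and -0.80 in the IGFBP6 knockdown arrays, against 0.04, 0.13 and 0.025 in the ELOVL5 knockdown arrays.

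Large single differences inside these runs were those of *ADGRE5*, the adhesion receptor CD97, at -2.45, *COLGALT1*, which adds sugar to collagen, at -2.11 and the chaperone gene *DNAJB1* at -1.85 on chromosome 19. On chromosome 12 they were *LMO3* at 2.26, *ZNF268* at 1.73 and *OAS2*, an interferon-stimulated gene, at -2.00. The run on chromosome 11 holds the metalloproteinase genes *MMP3*, at 5.94, and *MMP1*, and ends with *IL18*, all of them higher. Runs with a median of at least 1.5 times held 372 genes on chromosomes 1, 9, 12 and 19 in the lower direction, of which 193 were lower, and 133 genes on chromosomes 11 and 12 in the higher direction, of which 65 were higher. These are 3.97% and 1.42% of the placed genes and hold 15.6% of the lower and 5.66% of the higher calls. Over all placed genes 13.2% were lower and 12.2% were higher. As the runs were picked for their medians, a high share of calls within them is built in. The interferon-stimulated genes *OAS2*, *OAS3* and *BST2* lie in such surroundings, with a median of their 40 neighbours of -0.79, -0.80 and -0.80. *TIMP3*, *CCL2* and *HMGCS1* lie in surroundings with a median of -0.12, 0.24 and -0.12. The number of copies of these chromosome parts in each culture was not measured here, and its part in the result was not tested.

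**Figure D5:**
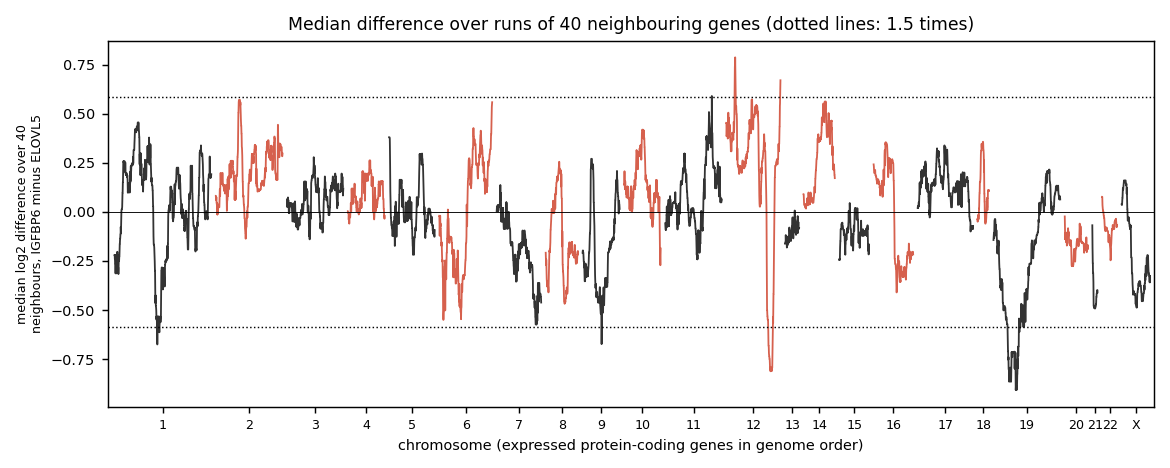
Median log2 difference, IGFBP6 minus ELOVL5 knockdown (vertical axis), over each run of 40 neighbouring expressed protein-coding genes in genome order (horizontal axis), with chromosomes in alternating colours. The line reaches -0.91 on chromosome 19, and on chromosome 12 both 0.79 and -0.81.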

How the data were processed

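Total RNA of MDA-MB-231 cultures was measured on Affymetrix Human Transcriptome Array 2.0 arrays, which reads gene and exon probes as intensity. Each deposited value is a log2 intensity of 1 transcript cluster, made by the authors with RMA (background correction, normalization, summary over probes) in Transcriptome Analysis Console 4.0.0.25. RMA options and genome build are not given in the sources used here. Of 67528 transcript clusters, 23781 carry 1 gene symbol, and 479 genes with several are represented by that of highest mean across the 6 knockdown arrays. The 6 arrays were fitted without covariates by lmFit and eBayes of limma 3.58.1 (R 4.3.3), with 4 residual degrees of freedom and the Benjamini-Hochberg adjustment over all 67528 clusters. Differences are IGFBP6 minus ELOVL5 knockdown. With 3 arrays a group the smallest exact two-sided permutation p is 0.1, and precision is limited accordingly. In simulated data with 200 changed genes among 67528 clusters the fit recovered 13%, 67.1% and 89.6% at 1.5, 2 and 4 times. In the data 6040 clusters were called, so the adjustment was less strict there and these shares do not give its recovery. A true change of 1.5 times also lies on the threshold itself and is often measured below it.

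Values against LUC come from a fit of all 9 arrays. The named genes are the targets, the 15 largest called differences each way without overlap, up to 4 called members of each list, the genes the methods name, 5 each way whose knockdowns lie on opposite sides of all LUC arrays and the top 3 of each run; other genes were named after their values were seen. The members and the 63 gene lists (6 of them markers) were chosen with earlier results of these data known. Runs and neighbours follow the gene order of GRCh38.p14 with expressed meaning a mean log2 of at least 6. Alternatives changed the arrays, the variance model, a replicate block, a filter on dim probes, the scaling, array weights, the adjustment, the thresholds, the summary per gene and the run settings, and left out each array. Figures were drawn with matplotlib 3.10.9.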

Additional observations from a re-analysis of the deposited data

Results flagged for a closer look

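Called genes whose knockdown arrays did not overlap numbered 1445 higher and 1494 lower here. In 102 of the higher and 104 of the lower, all arrays of one knockdown lay above and all arrays of the other below the LUC arrays. This order was not counted over all genes, so no background share stands beside these counts and nothing is concluded from their size. The 5 of each with the largest difference are given here. The difference itself was tested with limma for each. *LINC02582* differed by 4.44, with 12.07, 11.58 and 11.52 in the IGFBP6 knockdown, against 7.25, 7.46 and 7.13 in the ELOVL5 knockdown and 7.54, 8.19 and 8.39 in the LUC control. *CXCR4*, a chemokine receptor, differed by 2.87, with 10.06, 9.82 and 9.15 in the IGFBP6 knockdown, against 6.89, 6.68 and 6.86 in the ELOVL5 knockdown and 7.74, 7.42 and 7.47 in the LUC control. *OLFML1*, *PROS1* (protein S, an anticoagulant) and *ARRDC4* differed by 2.56, 2.25 and 2.19, with the ELOVL5 knockdown close under the control for *OLFML1* (4.13 to 4.23, against 4.30 to 4.37) and *ARRDC4* (6.20 to 6.41, against 6.44 to 6.54).

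Downward, *SHISA2* differed by -5.10, with 5.85, 5.55 and 4.47 in the IGFBP6 knockdown, against 10.10, 10.58 and 10.48 in the ELOVL5 knockdown and 9.59, 9.05 and 9.15 in the LUC control. *TGM2* differed by -4.04, with 7.21, 7.72 and 7.29 in the IGFBP6 knockdown, against 11.46, 11.42 and 11.47 in the ELOVL5 knockdown and 10.48, 10.93 and 10.25 in the LUC control. *FLG*, *HLA-DRA* and *LAPTM5* differed by -3.85, -3.77 and -3.66. Against the control alone, the ELOVL5 knockdown passed an adjusted p of 0.05 (limma, all 9 arrays) for *TGM2* (0.90, adjusted p = 0.0442) and *FLG* (0.95, adjusted p = 0.034) and missed it for the other 8.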

How the results depend on the processing

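The counts of called genes were 1446 higher and 1494 lower. They were 475 and 591 at a threshold of 2 times, 2341 and 2371 without a fold threshold, where *IGFBP6* (-0.51) is called, and 896 and 1019 without moderation of the variance. Leaving out 1 array at a time gave 1214 to 1774 higher and 1321 to 1598 lower. Without IGFBP6 knockdown replicate 1 the higher genes made up 56.8% of calls, beside 49.2%. The difference of *ELOVL5* ranged from 1.94 to 2.17 and that of *IGFBP6* from -0.58 to -0.41, the highest median difference over a run of neighbouring genes from 0.75 to 0.85 and the lowest median difference over a run of neighbouring genes from -0.995 to -0.84. The genes whose difference is bounded within 1.5 times were 15623 of 22465. After dim probes were left out they were 5242 of 11048, as most of the bounded genes are dim. They were 6386 with a narrower bound and 14003 to 15467 with 1 array left out. Same-numbered arrays correlated in their deviations at 0.0923, 0.162 and 0.0243, so the numbers were not taken to pair them, and with the replicate number as a block 1451 genes were higher and 1506 lower. Of 236 named genes, 58 lost their call at 2 times and 42 without moderation, and none reversed in any alternative; the *IGFBP6* gene has no value once dim probes are left out. Median centring of the runs and list counts with an array left out were chosen after seeing the data.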
